A study of Mus musculus with 12 samples.

Results

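Immediate early genes are transcribed within minutes of a stimulus, before any new protein is made. Here 10 of them, Fos, Fosb, Jun, Junb, Egr1, Egr2, Arc, Npas4, Nr4a1 and Dusp1, were found by gene symbol among the 24062 genes of each expression table, and all 10 were present in both tables. Poly(A) RNA was sequenced from brain and spleen of male C57BL/6 mice aged 10 weeks, with 3 Norad-/- and 3 Norad+/+ libraries per tissue and 1 mouse per library. The Norad-/- mice lack the long noncoding RNA Norad in every cell, through a germline deletion made with Cas9 and a pair of flanking guide RNAs. They descend from 3 founders, and the founder of each library is not given. The question put to the data was whether mice without Norad differ in the levels of these genes. Values are FPKM, sequenced fragments scaled to library depth and transcript length, which can be compared between genes.

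The members are the usual readout of recent activity in neurons and of recent receptor signalling in lymphocytes. Calcium and MAP kinase signals act on the transcription factors CREB and SRF, which sit on these promoters in advance, and the mRNAs that result are short-lived. Fos, Fosb, Jun and Junb encode subunits of the dimeric transcription factor AP-1. Egr1 and Egr2 are zinc finger transcription factors, Npas4 is a neuron-specific one, and Nr4a1 is an orphan nuclear receptor that also marks antigen receptor signalling in T and B cells. Arc encodes a synaptic protein that promotes the removal of AMPA receptors, and Dusp1 a phosphatase that switches MAP kinases off again.

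The deletion could be read directly. Norad, listed under its older symbol 2900097C17Rik, had at most 0.0173 FPKM in the 6 Norad-/- libraries, against 206, 259 and 635 FPKM in Norad+/+ brain and 62.0, 42.9 and 56.3 FPKM in Norad+/+ spleen. It fell in both tissues, with a log2 fold change of -11.58 in brain (limma, adjusted p = 0.00077) and -8.95 in spleen (limma, adjusted p = 1.99e-05). Estimated depth was 28.3 to 36.5 M reads per library. Norad+/+ replicate 3 stood apart in each tissue, with a median Spearman correlation to the other libraries of 0.949 in brain (0.973 to 0.979 for the rest) and 0.948 in spleen (0.961 to 0.971). The summed level of 5 pituitary markers was 1333 FPKM in Norad-/- brain replicate 3 and at most 1.44 in the other brain libraries. Pancreas markers summed to 281 FPKM and liver markers to 103 FPKM in Norad+/+ spleen replicate 3. Where leaving out 1 library, these or another, moved a member's value by much, the range over the libraries left out is given beside it. The tissue labels held, since 5 neuronal markers summed to 1633 to 2342 FPKM in brain and at most 16.4 FPKM in spleen. The 16.4 FPKM was that of Norad+/+ spleen replicate 3, against 2.46 to 3.70 FPKM in the other spleen libraries.

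The promoters were searched for the cAMP response element, the sequence that CREB binds. RefSeq promoter windows on GRCm38.p6, 250 bases before to 50 bases after the annotated start, were at hand for 8 of the 10 members, all but Arc and Egr1. The core element TGACG, searched on both strands so that its reverse CGTCA also counts, was found in 7 of these 8 promoters, against 23.0% of 27025 genes. Jun was the member without it. The 27025 genes are all those with a window, whether expressed in these tissues or not, and no share was taken over expressed genes alone. The full palindrome TGACGTCA, which holds the core on both strands, was found in 1 of 8 members, Dusp1, against 2.03% of genes. The AP-1 site TGAGTCA was found in 0 of 8 members (5.95% of genes). A CArG box, which binds SRF, was found in 1 of 8, Egr2 (1.81% of genes). Sites outside these windows were not searched, so a member without a match here may hold the element farther off. A match is a string of letters and does not show that a factor was bound. One stretch of 30 bases is printed for each of the 7 promoters to show where this element lies. Where a gene had more than 1 window, the window with the most CArG boxes, and then the most core elements, was used. Starts, distances and copy numbers are those of that window. In Egr2, Npas4, Nr4a1 and Dusp1 the stretch lay inside the gene's annotated span (GENCODE M21). Each runs 5′ to 3′ on the gene's own strand, all upstream of the start, with the core elements in capitals and, in Egr2, the CArG box also in capitals.
Fos, chr12:85473807-85473836, plus strand: cttccagttccgcccagTGACGtaggaagt
Fosb, chr7:19310093-19310122, minus strand: gtgcatggagttgcgggTGACGcaagcgcg
Junb, chr8:84978842-84978871, minus strand: cacgcgcttcctgacagTGACGcgagccgc
Egr2, chr10:67537797-67537826, plus strand: CCATATATGGgcagcgaCGTCAcgggtatt
Npas4, chr19:4990128-4990157, minus strand: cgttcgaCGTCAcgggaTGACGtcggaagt
Nr4a1, chr15:101266789-101266818, plus strand: ccccgcccctctccatgCGTCAcggagcgc
Dusp1, chr17:26508600-26508629, minus strand: ctcggtagggcgggTGACGTCAccgcccgg
The core element lay 40 bases from the start in Nr4a1, 60 in Fosb and 66 in Fos. It lay farther off in Junb (106 bases), Egr2 (116), Dusp1 (140) and Npas4 (169). Nr4a1 held 4 core elements in its upstream window and Dusp1 3, where the palindrome of Dusp1 was counted once on each strand. Fos, Egr2 and Npas4 held 2 each, and Fosb and Junb 1 each.

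Levels spanned a wide range. In Norad+/+ brain Egr1 was the highest member at 181 ± 46.9 FPKM (SD, n = 3), followed by Nr4a1 at 62.6 ± 5.65 and Arc at 59.3 ± 2.94, which lay within each other's spread. Jun (33.2 ± 9.0), Dusp1 (26.2 ± 2.34) and Junb (23.9 ± 5.87) followed, with ranges that overlapped from one to the next. Fos stood at 17.4 ± 0.357 FPKM, and Npas4 (10.2 ± 3.88), Fosb (6.74 ± 1.46) and Egr2 (5.92 ± 1.33) were lowest, again with overlapping ranges. Over all brain libraries Egr1 lay at percentile 98.7 of the 13051 genes that averaged 1 FPKM or more, Arc at 94.5 and Nr4a1 at 94.1, while Egr2 lay at 43.8.

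The order was different in spleen. There Nr4a1 (34.0 ± 2.35 FPKM; SD, n = 3 Norad+/+ mice) and Junb (31.6 ± 9.31) were highest, followed by Dusp1 (24.7 ± 3.27), Egr1 (18.2 ± 2.22) and Jun (14.4 ± 3.49). Egr2 had 4.69 ± 0.751 FPKM and Fos 2.47 ± 0.467. Arc (1.57 ± 0.532), Fosb (0.750 ± 0.117) and Npas4 (0.686 ± 0.133) were lowest. Nr4a1, Junb and Dusp1 overlapped from one to the next, as did Egr1 with Jun and Fosb with Npas4, whereas the other neighbours in this order did not overlap. For 7 of the 10 members every brain library lay above every spleen library, and for 0 members the reverse held. The exceptions were Junb, Egr2 and Dusp1. Arc was 37.7 times higher in Norad+/+ brain than in Norad+/+ spleen, Npas4 14.8 times and Egr1 9.91 times. The tables of the tissues were made separately, so these ratios are a description and were not tested. In bulk tissue, fewer cells that express a gene and less RNA per cell cannot be told apart.

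**Figure D1:**
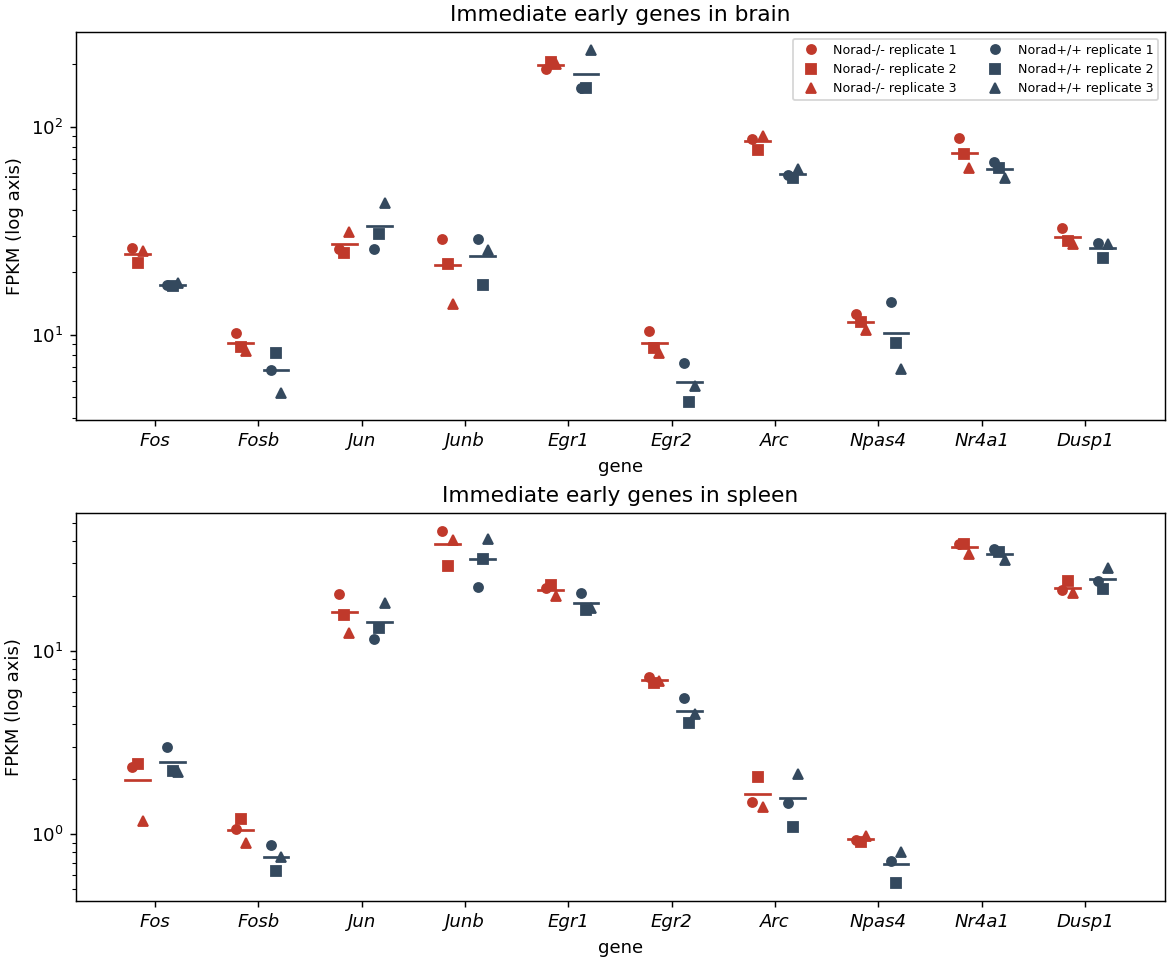
FPKM of the 10 immediate early genes on a log axis in brain (top) and spleen (bottom). Each point is 1 mouse, red for Norad-/- and dark blue for Norad+/+, with the marker shape giving the replicate number and a bar at the group mean. In brain all Norad-/- points of Fos, Fosb, Egr2 and Arc lie above all Norad+/+ points.

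Genotype was compared within each tissue by limma, a linear model that borrows strength across genes, on log2(FPKM + 0.1). In brain all 10 members passed the filter of 1 FPKM and 0 of them passed an adjusted p of 0.05, against 2 of all 13051 genes tested (0.0153%). At an unadjusted p under 0.05 there were 4 members, all higher in Norad-/- (6.62% of all genes in either direction). The same 4, Fos, Fosb, Egr2 and Arc, had every Norad-/- library above every Norad+/+ library, which held for 10.6% of all genes. For 0 members every Norad-/- library was lower (6.56% of all genes). The log2 fold change was above 0 for 8 members and below 0 for Jun and Junb, with a median of 0.25, beside 0.02 over all genes tested.

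Fos, the partner of Jun in AP-1 (ENSMUSG00000021250, chromosome 12, 85473890 to 85477273 in GRCm38, GENCODE M21), had 26.1, 22.2 and 25.2 FPKM in Norad-/- brain, against 17.4, 17.1 and 17.8 FPKM in Norad+/+ brain. The groups did not overlap, and the Norad+/+ mice differed from each other by less than 1 FPKM. The difference was 1.4-fold (log2 fold change 0.49, 95% interval 0.25 to 0.72, limma adjusted p = 0.464), and it ranked 61 of 13051 genes by p. Fosb, which gives rise to the long-lived variant ΔFosB, had 10.2, 8.78 and 8.39 FPKM in Norad-/- brain, against 6.78, 8.19 and 5.27 FPKM in Norad+/+ brain. The lowest Norad-/- mouse lay 0.205 FPKM above the highest Norad+/+ mouse, and the log2 fold change was 0.45 (SE 0.18, limma adjusted p = 0.718). It was 0.28 without Norad+/+ replicate 3 and 0.60 without Norad+/+ replicate 2.

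The Jun partners did not share this order. Jun had 25.9, 24.8 and 31.3 FPKM in Norad-/- brain, against 25.8, 30.6 and 43.2 FPKM in Norad+/+ brain. The highest value was that of Norad+/+ replicate 3, and the log2 fold change of -0.25 (SE 0.21, limma adjusted p = 0.762) was -0.05 without that library and -0.42 without Norad+/+ replicate 1. Junb had 28.9, 21.8 and 14.0 FPKM in Norad-/- brain, against 28.8, 17.4 and 25.6 FPKM in Norad+/+ brain. Its groups overlapped fully, and its log2 fold change of -0.18 (SE 0.31, limma adjusted p = 0.872) was 0.10 without Norad-/- replicate 3 and -0.42 without Norad-/- replicate 1.

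Of the EGR factors, Egr2 had the largest fold of the 10 members in brain when all libraries were used. It (ENSMUSG00000037868, chromosome 10, 67535475 to 67542188) had 10.4, 8.68 and 8.16 FPKM in Norad-/- brain, against 7.36, 4.75 and 5.65 FPKM in Norad+/+ brain. The groups were separated by 0.807 FPKM, for a 1.55-fold difference (log2 fold change 0.63, 95% interval 0.18 to 1.07, limma adjusted p = 0.690). The log2 fold change was 0.79 without Norad+/+ replicate 1 and 0.48 without Norad+/+ replicate 2. In the latter fit those of Fosb (0.60) and Arc (0.49) were larger. Egr1, far more abundant, had 191, 204 and 201 FPKM in Norad-/- brain, against 154, 153 and 235 FPKM in Norad+/+ brain. The Norad-/- mice lay between the Norad+/+ mice here, and the log2 fold change of 0.17 (SE 0.19, limma adjusted p = 0.804) was 0.37 without Norad+/+ replicate 3, 0.07 without Norad+/+ replicate 1 and 0.06 without Norad+/+ replicate 2.

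Arc (ENSMUSG00000022602, chromosome 15, 74669083 to 74672570) had 87.6, 77.4 and 90.3 FPKM in Norad-/- brain, against 58.4, 56.9 and 62.6 FPKM in Norad+/+ brain. The groups were 14.8 FPKM apart, the widest gap in FPKM among the members, and the difference was 1.43-fold (log2 fold change 0.52, 95% interval 0.26 to 0.77, limma adjusted p = 0.479). Leaving out any 1 library kept the log2 fold change of Arc between 0.47 and 0.58. Npas4, the other neuronal member, had 12.5, 11.5 and 10.5 FPKM in Norad-/- brain, against 14.4, 9.16 and 6.88 FPKM in Norad+/+ brain. The highest and the lowest mouse were both Norad+/+, and the log2 fold change of 0.24 (SE 0.26, limma adjusted p = 0.801) was -0.00064 without Norad+/+ replicate 3 and 0.53 without Norad+/+ replicate 1.

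Nr4a1 had 88.0, 74.5 and 63.3 FPKM in Norad-/- brain, against 67.8, 63.5 and 56.6 FPKM in Norad+/+ brain. The ranges met in the middle, with a log2 fold change of 0.25 (SE 0.15, limma adjusted p = 0.718) that was 0.14 without Norad-/- replicate 1 and 0.37 without Norad-/- replicate 3. Dusp1 had 32.8, 28.3 and 27.2 FPKM in Norad-/- brain, against 27.8, 23.5 and 27.3 FPKM in Norad+/+ brain. Its log2 fold change was 0.17 (SE 0.12, limma adjusted p = 0.741), and 2 of 3 Norad-/- mice lay above all Norad+/+ mice. It was 0.09 without Norad-/- replicate 1 or without Norad+/+ replicate 2. The intervals still allow differences of up to 1.54-fold for Nr4a1 and 1.37-fold for Dusp1 in Norad-/- brain, so a missed threshold does not show equal levels.

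**Figure D2:**
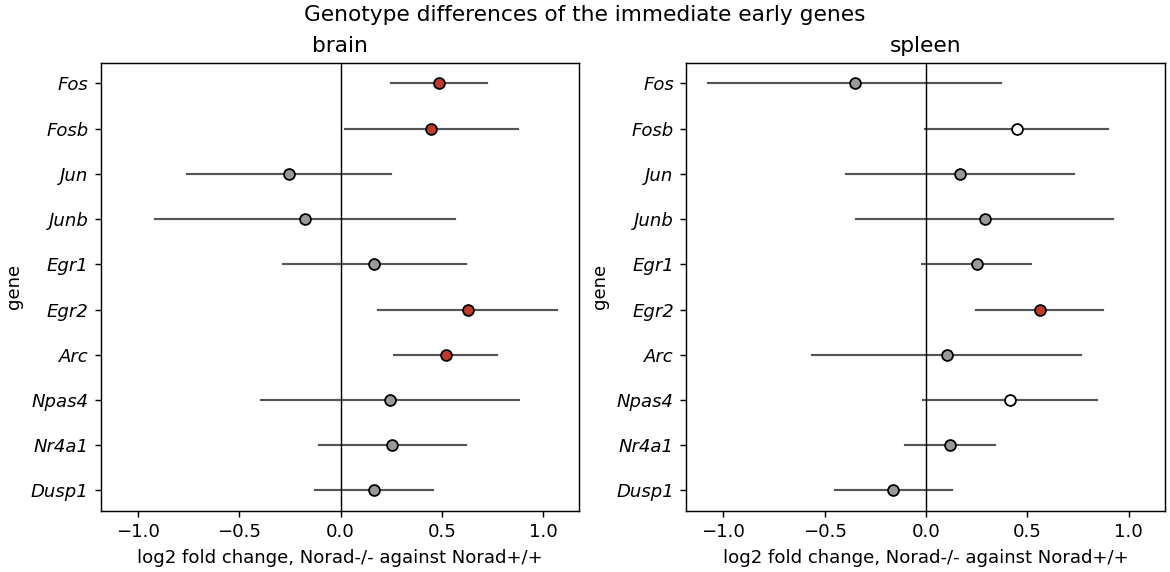
Log2 fold change of each immediate early gene, Norad-/- against Norad+/+, in brain (left) and spleen (right), with its 95% interval from limma. Red marks groups that do not overlap, grey groups that do, and open circles the spleen members under 1 FPKM (Fosb and Npas4, whose groups do not overlap either). In brain the intervals of Fos, Fosb, Egr2 and Arc lie above 0, and in spleen that of Egr2.

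In spleen 8 members passed the filter and Fosb and Npas4 did not. Of the 8, 0 passed an adjusted p of 0.05, against 4 of all 12397 genes tested (0.0323%), and 1 did so at an unadjusted p under 0.05 (21% of all genes). This was Egr2, also the one tested member with every Norad-/- library above every Norad+/+ library (11.6% of all genes). For 0 members every Norad-/- library was lower (14.9% of all genes). The log2 fold change was above 0 for 6 of the 8 and below 0 for Fos and Dusp1, with a median of 0.14, beside -0.02 over all genes tested.

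Egr2, which restrains T cell activation, had 7.25, 6.69 and 6.81 FPKM in Norad-/- spleen, against 5.51, 4.04 and 4.51 FPKM in Norad+/+ spleen. The Norad-/- mice lay close together and 1.18 FPKM above the highest Norad+/+ mouse. The 1.48-fold difference (log2 fold change 0.56, 95% interval 0.25 to 0.88, limma adjusted p = 0.152) was close in size to the 1.55-fold difference in brain. Egr2 was thus the one tested member whose groups were apart in both tissues. Fosb, under the filter in spleen, also had its groups apart in both, by 0.0227 FPKM in spleen. Egr1 had 22.0, 22.8 and 20.02 FPKM in Norad-/- spleen, against 20.8, 16.8 and 17.1 FPKM in Norad+/+ spleen. Its log2 fold change was 0.25 (SE 0.11, limma adjusted p = 0.259), with 1 overlapping pair of mice.

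The AP-1 genes varied more between mice. Fos had 2.33, 2.43 and 1.18 FPKM in Norad-/- spleen, against 3.01, 2.21 and 2.19 FPKM in Norad+/+ spleen. The low value of Norad-/- replicate 3 carried the log2 fold change of -0.35 (SE 0.30, limma adjusted p = 0.524), which was -0.03 without it and -0.53 without Norad-/- replicate 2. Jun had 20.4, 15.7 and 12.5 FPKM in Norad-/- spleen, against 11.6, 13.4 and 18.3 FPKM in Norad+/+ spleen. Junb had 45.2, 29.0 and 40.1 FPKM in Norad-/- spleen, against 22.2, 31.6 and 40.9 FPKM in Norad+/+ spleen. Both overlapped widely, with log2 fold changes of 0.17 for Jun (SE 0.23, limma adjusted p = 0.709) and 0.29 for Junb (SE 0.26, limma adjusted p = 0.553). With 1 library left out, Junb ranged over 0.06 (without Norad+/+ replicate 1) to 0.50 (without Norad+/+ replicate 3), and Jun over -0.010 (without Norad-/- replicate 1) to 0.35 (without Norad+/+ replicate 3). Fosb had 1.07, 1.21 and 0.891 FPKM in Norad-/- spleen, against 0.868, 0.634 and 0.748 FPKM in Norad+/+ spleen. Its groups were 0.0227 FPKM apart, at about 78.0 to 161 reads per library by estimate.

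Nr4a1 had 38.2, 38.5 and 33.8 FPKM in Norad-/- spleen, against 36.1, 34.4 and 31.4 FPKM in Norad+/+ spleen. It was the steadiest member there, with a log2 fold change of 0.12 (SE 0.09, limma adjusted p = 0.497) that was 0.06 without Norad+/+ replicate 3 and 0.18 without Norad-/- replicate 3. Dusp1 had 21.4, 24.0 and 20.6 FPKM in Norad-/- spleen, against 24.1, 21.8 and 28.3 FPKM in Norad+/+ spleen, for a log2 fold change of -0.16 (SE 0.12, limma adjusted p = 0.462). It was -0.06 without Norad+/+ replicate 3 and -0.25 without Norad+/+ replicate 2. The neuronal genes were near the floor. Arc had 1.51, 2.06 and 1.40 FPKM in Norad-/- spleen, against 1.49, 1.09 and 2.14 FPKM in Norad+/+ spleen (limma adjusted p = 0.860), and its log2 fold change of 0.10 ranged over -0.12 to 0.34 with 1 library left out. Npas4 had 0.929, 0.911 and 0.975 FPKM in Norad-/- spleen, against 0.712, 0.541 and 0.803 FPKM in Norad+/+ spleen. Its groups did not overlap, but without the filter neither Npas4 (log2 fold change 0.42, limma adjusted p = 0.317) nor Fosb (0.45, limma adjusted p = 0.310) passed.

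The genotype differences of the tissues were compared in 1 fit over all 12 libraries, as the spleen difference minus the brain difference. Of the 10 members 0 passed an adjusted p of 0.05, as did 0% of the 14967 genes tested, and at an unadjusted p under 0.05 there was 1 member (14.7% of all genes). This was Fos, with a log2 fold change of 0.49 in brain and -0.35 in spleen, and a difference of -0.84 (SE 0.33, limma adjusted p = 0.284). Its spleen value was -0.03 without Norad-/- spleen replicate 3. For Egr2 the difference was -0.07 (95% interval -0.59 to 0.46), so its brain and spleen values were alike within an interval that is itself wide. The same holds for Fosb, under the filter in spleen, with a difference of -0.00034 (95% interval -0.57 to 0.56). Whether the brain and spleen libraries come from the same mice is not given.

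The spread between mice of 1 genotype was compared with that of other genes, as a description. The median within-genotype SD of log2(FPKM + 0.1) was 0.249 over the members and 0.187 over all genes tested in brain, and 0.252 and 0.158 in spleen. Members were not alike in this. In brain Fos (percentile 14.4 of spread), Arc (17.3) and Dusp1 (32.8) were steadier than the median gene, whereas Junb (90.3), Npas4 (85.9) and Jun (74.9) were among the more variable. In spleen Nr4a1 lay at percentile 24.0 and Fos, so steady in brain, at 88.6, followed by Junb (86.6), Arc (86.1) and Jun (83.6). The spread of Fos in spleen rests on about 87.8 to 201 reads per library.

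**Figure D3:**
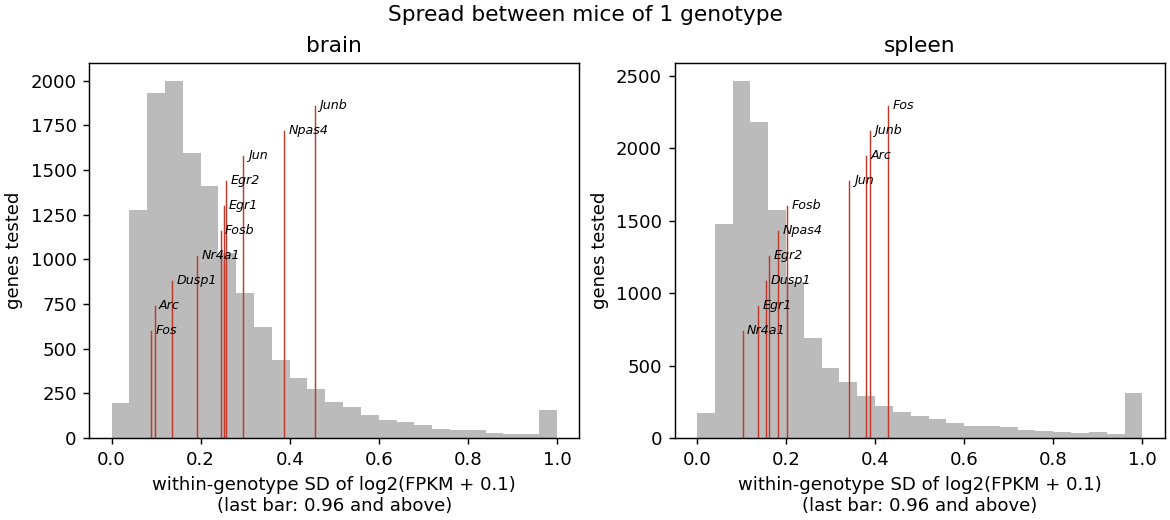
Histogram of the pooled within-genotype SD of log2(FPKM + 0.1) over the genes tested in brain (left) and spleen (right), in grey, with red lines at the immediate early genes and line height used for spacing only. The last bar collects all larger values, and Fosb and Npas4 in spleen are under the filter. Fos and Arc lie at the steady end in brain, and Fos lies at the variable end in spleen.

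Some mice were high or low for several members at once. Norad-/- replicate 1 was the highest of the 6 brain libraries for 6 of 10 members (Fos, Fosb, Junb, Egr2, Nr4a1 and Dusp1), and Norad+/+ replicate 2 was the lowest for 5. The mean centred log2 level of the 10 members was 0.26, 0.08 and 0.03 in the Norad-/- brains, against -0.04, -0.22 and -0.11 in the Norad+/+ brains. In spleen the mean was taken over the 8 members that passed the filter, so without Fosb and Npas4. It was 0.18, 0.12 and -0.12 in Norad-/- mice, against -0.06, -0.19 and 0.07 in Norad+/+ mice, which overlap. The genes whose 6 values came nearest to the members' mean profile were Nfe2l3, Slc30a10, Mas1, 4930506C21Rik and Nr2e1 in brain, with a root-mean-square difference of 0.028 to 0.046. In brain 129 of 13041 genes came within 0.1, and in spleen 643 of 12389. The nearest in spleen were Zfp865, Pdcd2, Tmem18, Ankrd23 and Gripap1 (0.035 to 0.039).

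Short-lived mRNAs often carry the AU-rich motif ATTTA in the 3′ UTR, and PUMILIO proteins, which Norad binds, recognise the element TGTANATA. In the longest annotated 3′ UTR (GENCODE M21), 9 of 10 members held at least 1 ATTTA, against 72.0% of 11934 genes tested in brain, and Arc held 0. The members' median density was 2.87 per kilobase, against 1.26 over all genes. Fos, Jun and Dusp1 held 4 each, and Egr2 and Nr4a1 3 each. The PUMILIO element was present in 5 of 10 members, against 28.2% of genes, with 3 copies in Nr4a1, 2 in Jun and 1 each in Egr1, Egr2 and Dusp1. Of these 5, Jun was lower and the other 4 higher in Norad-/- brain by the sign of the log2 fold change, with Egr2 the only one whose groups did not overlap. Fos, Fosb and Arc, the other members with groups apart in brain, held 0 copies.

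A list of 38 other immediate early and early response genes was read beside the members. In brain 36 were tested and 0 passed the adjusted threshold. At an unadjusted p under 0.05, 5 were higher and 3 lower in Norad-/- (6.62% of all genes in either direction). The median log2 fold change was 0.11. The smallest p in the list was that of Egr3, a further zinc finger factor of the EGR family. Egr3 had 103, 89.99 and 75.3 FPKM in Norad-/- brain, against 43.0, 45.2 and 32.5 FPKM in Norad+/+ brain. Every Norad-/- mouse was far above every Norad+/+ mouse, for a log2 fold change of 1.15 (SE 0.18, limma adjusted p = 0.256). Klf10, a Krüppel-like repressor, had 13.6, 14.6 and 14.2 FPKM in Norad-/- brain, against 6.66, 9.56 and 8.17 FPKM in Norad+/+ brain (log2 fold change 0.80, limma adjusted p = 0.396). Trib1, a pseudokinase, had a log2 fold change of -0.73 (limma adjusted p = 0.276) and Cebpb, a basic leucine zipper factor, one of -1.04 (limma adjusted p = 0.690).

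In spleen 31 of the 38 were tested and 0 passed, with a median log2 fold change of 0.14. At an unadjusted p under 0.05, 8 were higher and 3 lower in Norad-/- (21% of all genes in either direction). The AP-1 subunit Fosl2 had 3.84, 3.71 and 3.48 FPKM in Norad-/- spleen, against 5.0, 5.05 and 5.22 FPKM in Norad+/+ spleen (log2 fold change -0.46, limma adjusted p = 0.141). Klf2, a factor that keeps T cells quiescent, had a log2 fold change of 0.43 (limma adjusted p = 0.169). Nr4a3, a relative of Nr4a1, had 0.36, and Crem, a CREB family member, 0.78 (limma adjusted p = 0.187 for each). Egr3 had 30.7, 30.4 and 22.7 FPKM in Norad-/- spleen, against 26.0, 21.1 and 19.9 FPKM in Norad+/+ spleen, so its groups overlapped there.

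Of 31 kinases and transcription factors upstream of the members, 31 were tested in brain and 30 in spleen, and 0 passed in either tissue. In brain 1 was higher and 0 lower in Norad-/- at an unadjusted p under 0.05 (6.62% of all genes), with a median of 0.06. That gene was Camk2a, the abundant calcium-activated kinase of forebrain excitatory neurons. Camk2a had 695, 651 and 613 FPKM in Norad-/- brain, against 411, 375 and 266 FPKM in Norad+/+ brain (log2 fold change 0.92, SE 0.18, limma adjusted p = 0.455). Among the others, the kinase gene Mapk3 had 93.5, 102 and 106 FPKM in Norad-/- brain, against 91.1, 92.6 and 41.4 FPKM in Norad+/+ brain. Its log2 fold change was 0.51 (SE 0.32, limma adjusted p = 0.720), and the lowest value was that of Norad+/+ replicate 3. The CREB relative Atf1 had a log2 fold change of 0.22 (SE 0.14, limma adjusted p = 0.719). In spleen the median was 0.04. There 3 were higher and 1 lower in Norad-/- at an unadjusted p under 0.05 (21% of all genes in either direction). These were Crtc2, a CREB coactivator (log2 fold change 0.35), Mkl1, an SRF coactivator (0.26), the kinase Rps6ka3 (0.28) and the GTPase Hras (-0.91).

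Other lists were read for the makeup of the tissue. The summed level of 5 forebrain neuron markers was 1480 to 1771 FPKM in Norad-/- brain and 1261 to 1415 FPKM in Norad+/+ brain. Within it 2 of 5 had a log2 fold change above 0, Camk2a was higher and Neurod6 lower (-0.97) at an unadjusted p under 0.05, and 0 of 5 passed. Camk2a alone held 613 to 695 FPKM of the sum in Norad-/- brain and 266 to 411 FPKM in Norad+/+ brain. The median log2 fold change of the 5 was -0.0018. The 5 cerebellar granule cell markers summed to 204 to 286 FPKM in Norad-/- brain and 237 to 352 FPKM in Norad+/+ brain. In spleen the 5 T cell markers summed to 278 to 334 FPKM in Norad-/- and 188 to 225 FPKM in Norad+/+, with 5 of 5 higher at an unadjusted p under 0.05 and 0 of 5 past the adjusted threshold. Those of B cells summed to 1403 to 1585 FPKM in Norad-/- and 1215 to 1434 FPKM in Norad+/+ spleen. The 10 erythroid precursor markers summed to 57.5 to 837 FPKM in Norad-/- and 639 to 2063 FPKM in Norad+/+ spleen, where 10 of 10 were lower at an unadjusted p under 0.05 and 0 of 10 passed. Macrophage markers summed to 362 to 483 FPKM in Norad-/- and 486 to 654 FPKM in Norad+/+ spleen, with 4 of 5 lower at that level. Neutrophil markers summed to 163 to 1002 FPKM in Norad-/- and 756 to 1929 FPKM in Norad+/+ spleen, with 4 of 4 tested lower. Of all spleen genes tested 21% had such an unadjusted p, and 0 genes of these lists passed. Choroid plexus markers summed to 359 to 380 FPKM in Norad-/- brain and 389 to 646 FPKM in Norad+/+ brain, with 1 of 4 tested lower at an unadjusted p under 0.05 and 0 passing. The part of these differences in the members' values was not tested.

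Stress-induced heat shock chaperones, another rapidly induced group, were also read. In brain 8 of 9 were tested, 0 passed, and 7 of 8 had a log2 fold change below 0, with a median of -0.14. In spleen 8 were tested and 0 passed, with a median of 0.46. At an unadjusted p under 0.05, 3 were higher in Norad-/- (21% of all genes in either direction). Hspa1a had 2.15, 1.78 and 2.23 FPKM in Norad-/- spleen, against 0.171, 0.289 and 0.480 FPKM in Norad+/+ spleen. Hspa1b had 13.5, 12.4 and 2.67 FPKM in Norad-/- spleen, against 0.285, 0.520 and 0.649 FPKM in Norad+/+ spleen. The order of Hspa1b was the opposite in brain, with 0.490, 0.426 and 0.813 FPKM in Norad-/-, against 4.94, 3.85 and 1.25 FPKM in Norad+/+. Hspa1a overlapped in brain, with 0.823, 0.776 and 5.33 FPKM in Norad-/-, against 1.38, 2.75 and 1.48 FPKM in Norad+/+. Hspa1a and Hspa1b are near-identical copies, so uniquely mapped reads may be split unevenly between them. The limma adjusted p was 0.107 for Hspa1a and 0.138 for Hspa1b in spleen, and 0.605 for Hspa1b in brain. The time and handling between death and RNA extraction are not given in the sources used here, and their part in the members' values was not tested.

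**Figure D4:**
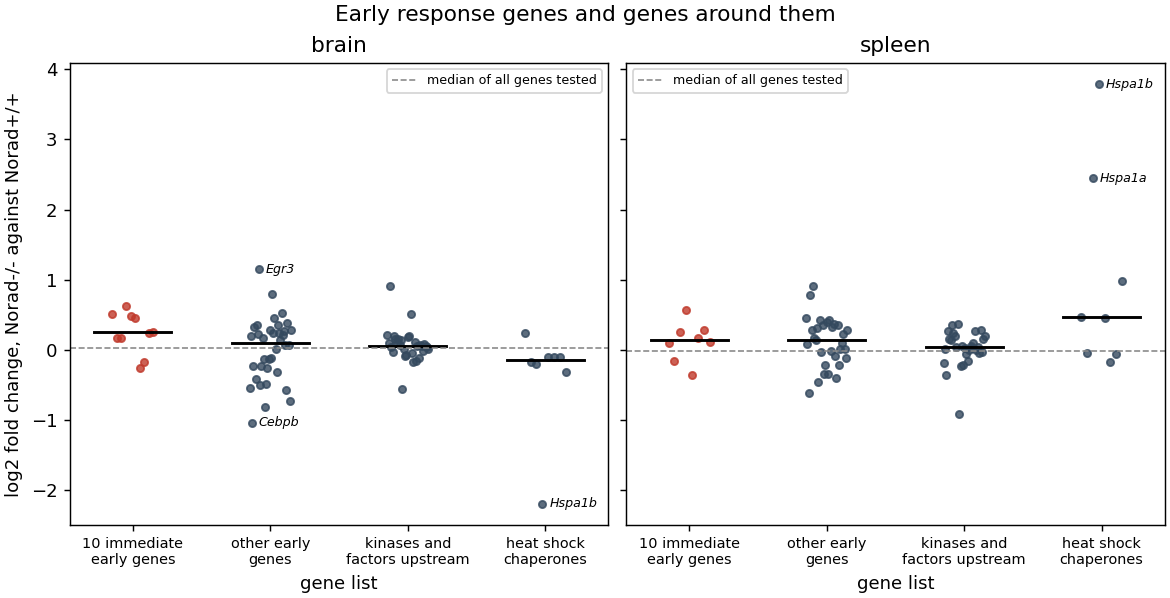
Log2 fold change, Norad-/- against Norad+/+, of every tested gene of 4 lists in brain (left) and spleen (right), 1 point per gene, with a black bar at the list median and a dashed line at the median of all genes tested. Genes beyond 1 in either direction are named. Egr3 is the highest early response gene in brain, and Hspa1a and Hspa1b stand far above the other genes in spleen.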

How the data were processed

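Stranded poly(A) libraries were read as single 75-base reads. The authors filtered reads on quality (NGS QC Toolkit), mapped them to GRCm38 using TopHat2 2.0.12 and retained unique hits. The deposited values are FPKM made with StringTie 1.2.2, per the labels and the methods, in 1 table per tissue. The authors' own comparison, on featureCounts 1.4.6 counts in edgeR 3.8.6, was not used. The annotation behind the FPKM is not given in the sources used here.

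Values were analysed as log2(FPKM + 0.1), which understates changes of low genes. Within each tissue, genes averaging 1 FPKM or more across its 6 libraries entered a two-sided limma 3.58.1 fit (R 4.3.3) whose variance followed a trend with level. Adjusted p-values (Benjamini-Hochberg) cover all genes of the tissue, and 0.05 was the threshold. The difference between tissues was a contrast over 12 libraries. No member list was tested as a set. The steps were checked on simulated data: of 200 genes given a log2 change of 1, 57.5% were recovered in brain (13051 genes) and 65% in spleen (12397 genes), and for a change of 2, 89% and 87.5%. Both changes are larger than the log2 fold change of any member, so recovery at the members' sizes was not checked.

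Depth was estimated from the FPKM worth of 1 read; 36.6% to 43.8% of low values were whole reads within 2%, so depths are estimates. Named genes are all members, Norad, the 5 genes per tissue nearest to the members' mean profile, and up to 4 genes of smallest p from a list. Egr3 in spleen was named after its value was seen. One gene that this rule names is withheld and not reported here. Members and lists were chosen with earlier results of these data known. Alternatives were a pseudocount of 1, no filter, TPM, quantile normalization, no variance trend, a replicate block and leaving out each library. Python 3.11.15 with numpy 2.4.6, pandas 2.3.3 and matplotlib 3.10.9 made the tables and figures.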

Additional observations from a re-analysis of the deposited data

How the results depend on the processing

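The count of members past the adjusted threshold stayed at 0 in brain, in spleen and for the difference between tissues under every alternative run. Scaling to TPM moved the median log2 fold change of all genes in spleen to 0.10 (-0.02 as deposited) and that of the tested members to 0.26 (0.14), and turned no member's sign. Members with non-overlapping groups numbered 4 in brain (3 under TPM and under quantile normalization) and 3 of all 10 in spleen (2 under TPM). With 1 library left out they numbered 4 to 6 in brain, beside 23.3% to 34.3% of all genes tested. The 6 was without Norad-/- replicate 3 (26.9% of all genes). In spleen they then numbered 3 to 5, beside 32.2% to 50.8% of all genes tested. The 5 was without Norad-/- replicate 3 (44.0% of all genes). Without replicate 3 of both genotypes, an alternative chosen after seeing the data, they numbered 7 in each tissue, where only 2 libraries a group have to be separated and the groups of 48.8% of all genes tested in brain and 53.6% in spleen did not overlap (17.1% and 26.5% with all libraries). Members above the 90th percentile of spread numbered 1 in brain (0 without the filter, 0 to 1 with 1 library left out) and 0 in spleen (1 under TPM and under quantile normalization, 0 to 2 with 1 library left out). The sign turned for Junb in brain without Norad-/- replicate 3 (0.10; -0.42 to 0.10 over the libraries left out) and without replicate 3 of both genotypes (0.17), for Npas4 in brain without Norad+/+ replicate 3 (-0.00064; up to 0.53), for Jun in spleen without Norad-/- replicate 1 (-0.010; up to 0.35), and for Arc in spleen without Norad-/- replicate 2 (-0.06) or Norad+/+ replicate 2 (-0.12; up to 0.34). None of these 4 was past the threshold in any fit. Same-numbered libraries correlated by 0.06 to 0.11 in brain, against -0.09 to 0.04 for differently numbered ones. In spleen they correlated by -0.15 to 0.34, against -0.48 to 0.36. Whether the numbers pair the mice is not given, and these values do not settle it. With the replicate number as a block, Fos in brain had an adjusted p of 0.701 and Egr2 in spleen one of 0.0765, and 0 members passed. Over the alternatives the limma adjusted p of Fos in brain ranged over 0.244 to 0.907, that of Arc in brain over 0.202 to 0.907 and that of Egr2 in spleen over 0.0765 to 0.446. With 3 mice a group, differences of the size seen for Fos and Arc in brain did not pass, and Fosb and Npas4 in spleen rest on few reads.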
